A study of Homo sapiens with 6 samples.

Results

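The genes described here encode the proteins that make and use microRNAs (miRNAs): the 4 Argonaute genes, the 3 GW182 genes and 3 genes of miRNA processing, *DICER1*, *DGCR8* and *XPO5*. They were found by their gene symbols, the Argonautes under the older names *EIF2C1* to *EIF2C4* (now *AGO1* to *AGO4*), and all 10 were present among the 21863 symbols of the table. Expression was measured by RNA sequencing in HepG2, a human liver cancer cell line, as RPKM, the reads of a gene scaled to its length in kilobases and to the mapped reads of its library. The 6 libraries came from 3 conditions, each sequenced once from total RNA and once from the RNA that came down with an antibody to Ago2 (Ago2-IP). Cells of the NT condition were not transfected and are labelled as 0 h. The others received 5 nM of a synthetic double-stranded RNA mimicking *miR-195* or *miR-497* and were collected 24 h later. With 1 library per group there was no replicate check, so no test between conditions was possible and a mimic cannot be told apart from transfection itself, from the time in culture or from the preparation of 1 library.

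A miRNA is cut from a long primary transcript by the Microprocessor, in which DGCR8 binds the hairpin for the nuclease Drosha. Exportin-5, the product of *XPO5*, carries the hairpin to the cytoplasm, and Dicer trims it to a short duplex. One strand is loaded into an Argonaute protein, which pairs through the seed of the miRNA with messenger RNAs, and a GW182 protein (TNRC6A, TNRC6B or TNRC6C) binds that Argonaute and recruits the deadenylases that silence the message. Ago2, the product of *EIF2C2*, is the human Argonaute best known for cutting a fully paired target, and is the protein pulled down in these Ago2-IP libraries.

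The mature sequences show what the mimics have in common and are given from RefSeq (GRCh38.p14, chromosome 17, minus strand), 5′ to 3′, with the seed (bases 2 to 8) in capitals.

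hsa-miR-195-5p: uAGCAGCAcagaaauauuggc
hsa-miR-497-5p: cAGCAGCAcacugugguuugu

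Both are 21 bases long, carry the same seed and share 12 positions in all. A message that pairs with either seed therefore holds the word TGCTGCT. On the canonical transcripts of GENCODE 44 (mapped to GRCh37, the same assembly as the hg19 used for the reads), 8 of the 10 genes had at least 1 such word in an annotated 3′UTR, with none in *TNRC6A* and *DGCR8*. The word was searched on the sense strand only and occurs in a 3′UTR of 25.3% of 18212 genes, or of 41.3% of the 7473 genes whose canonical 3′UTR has at least 1500 bases. The 10 genes have long ones, with a median of 4277 bases against 1117 over all genes, and up to 16755 bases in *EIF2C3*. The cut at 1500 bases does not match these lengths, and whether the genes hold more words than their length gives was not tested. The canonical 3′UTRs held 19 such words, 5 of them in *TNRC6B*, 3 each in *EIF2C1*, *EIF2C2* and *EIF2C4*, 2 in *DICER1* and 1 each in *EIF2C3*, *TNRC6C* and *XPO5*. In 4 of the 19 the word was followed by an A, which makes the longer word TGCTGCTA, found in 3 of the 10 genes and in 5.14% of all genes.

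The 5 words of *TNRC6B*, the gene with the most, are shown on the plus strand of chromosome 22 (hg19) in the order of the 3′UTR, with the word in capitals.

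TNRC6B, chr22:40721181-40721209: cctctgtaactTGCTGCTattgaggacaa
TNRC6B, chr22:40722949-40722977: ttttgaagatcTGCTGCTtaattatcccc
TNRC6B, chr22:40727538-40727566: gggaggagagaTGCTGCTtctgcgctttg
TNRC6B, chr22:40729787-40729815: cttttaacaaaTGCTGCTcatgtggatct
TNRC6B, chr22:40730597-40730625: ggagatataaaTGCTGCTttgggttccat

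The first of these is followed by an A. The other 3 words followed by an A lie in the 3′UTRs of *EIF2C1* and *EIF2C3*, on the plus strand of chromosome 1, and are shown with the single word of *TNRC6C* on chromosome 17 (plus strand), whose next base is G.

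EIF2C1, chr1:36394626-36394654: aatatactgaaTGCTGCTatgtgccaggt
EIF2C1, chr1:36395141-36395169: accctgtcagaTGCTGCTaccaagatttg
EIF2C3, chr1:36536773-36536801: cactagataatTGCTGCTaaaaacaaaac
TNRC6C, chr17:76104350-76104378: ggaaggtggtgTGCTGCTggctctgacca

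A word is a match of letters, and none of these was measured as a binding site.

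From the steps of the RPKM values, the number of mapped reads was estimated at about 24800000 to 31100000 in the total RNA libraries and 10700000 to 16900000 in the Ago2-IP libraries, with *miR-497* Ago2-IP the shallowest. All 9 hepatocyte markers were at 1 RPKM or more in every total RNA library, from 1.52 RPKM for *TTR* to 4880 RPKM for *AFP*. Of 6 markers of other cells, *PTPRC* and *CD3E* were at 0 in all 6 libraries, *PECAM1* and *COL1A1* stayed under 0.5 RPKM, and *ACTA2* and *CD68* were present at 10.5 to 36.2 RPKM in total RNA. The summed level of these 6 in total RNA ran from 33.0 RPKM in NT to 50.5 RPKM with *miR-497*, and its part in the results was not tested. The lines for *MIR195* and *MIR497* were at 0 in all 6 libraries, so the table does not show the transfected RNA.

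In total RNA, *XPO5* was the most abundant of the 10 messages in every condition and *TNRC6B*, *TNRC6C* and *EIF2C4* were the least abundant. Its RPKM was 16.8 times that of the lowest in NT, 14.8 times with *miR-195* and 16.4 times with *miR-497*. The highest 6 in each condition were *XPO5*, *DICER1*, *TNRC6A*, *DGCR8*, *EIF2C1* and *EIF2C2*, and these 6 lay above the median of the genes detected (5.24 to 5.51 RPKM). In NT the neighbours *EIF2C1* and *EIF2C2* differed by less than counting error (RPKM ratio 1.02, 95% counting interval 0.935 to 1.11), as did *EIF2C4* and *TNRC6B* (1.05, 0.905 to 1.21). A counting interval covers only the sampling of reads, and reads are not independent molecules. It rests on whole reads inferred for 6 of the 10 genes, and for *TNRC6A*, *TNRC6B*, *TNRC6C* and *XPO5* on a low estimate of the reads from their coding length, which makes it wider. The gene lengths implied by those reads were 3490 bases for *EIF2C2* and 3546 for *EIF2C3*, against 14595 and 19660 in the canonical transcripts. They were 7458 for *EIF2C1* and 4745 for *EIF2C4*, against 13712 and 7272. The RPKM of the 4 Argonautes thus rests on shorter models than today's, far shorter for *EIF2C2* and *EIF2C3*. Implied lengths for *DICER1* (10386 against 10384 bases) and *DGCR8* (4332 against 4506) were close to the annotation.

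In Ago2-IP the order was another one. *TNRC6A* led with both mimics and *EIF2C2* led in NT, where the RPKM of the 2 genes differed by less than counting error (ratio 1.05, 0.990 to 1.12). *XPO5* was in place 3 in NT and with *miR-195*, and in place 2 with *miR-497*. *TNRC6B* and *TNRC6C*, among the last in total RNA, were in places 5 and 6 in Ago2-IP of NT and *miR-195* cells. With *miR-497* they stood in places 6 and 9.

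**Figure D1:**
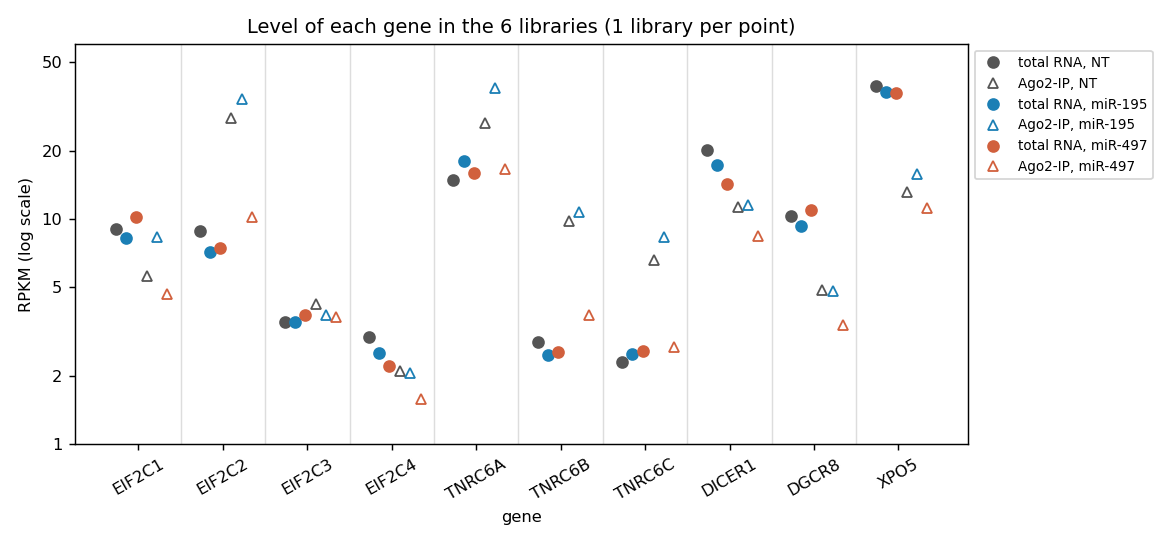
RPKM of each of the 10 genes (log axis) in the 3 total RNA libraries (filled circles) and the 3 Ago2-IP libraries (open triangles), coloured by condition, 1 library per point. The triangles of *EIF2C2*, *TNRC6A*, *TNRC6B* and *TNRC6C* lie above their circles in NT and *miR-195*, and with *miR-497* they come down to between 2.70 RPKM (*TNRC6C*) and 16.7 RPKM (*TNRC6A*).

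Among the Argonaute genes, *EIF2C2* alone was well above its total RNA level in the Ago2-IP. Total RNA of NT, *miR-195* and *miR-497* cells held 8.89, 7.11 and 7.42 RPKM of it. Its Ago2-IP values, in that order of conditions, were 28.1, 34.2 and 10.2 RPKM. The message that encodes the precipitated protein was thus 3.16 times as high in Ago2-IP as in total RNA in NT (counting interval 2.90 to 3.44), 4.81 times with *miR-195* (4.41 to 5.25) and 1.38 times with *miR-497* (1.22 to 1.56).

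*EIF2C1*, which encodes Ago1, a close relative of Ago2 that also binds miRNAs and GW182 proteins, had 9.06, 8.22 and 10.2 RPKM in total RNA of NT, *miR-195* and *miR-497* cells. Its Ago2-IP values were 5.59, 8.29 and 4.63 RPKM in the same order. They lay below total RNA in NT and with *miR-497*, and differed from it by less than counting error with *miR-195* (ratio 1.01, 0.930 to 1.09).

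*EIF2C3*, the gene of Ago3, was at 3.50, 3.49 and 3.76 RPKM in total RNA and at 4.18, 3.76 and 3.67 RPKM in Ago2-IP. These 6 values span the narrowest range of the 4 Argonautes. *EIF2C4*, the gene of Ago4, was at 2.98, 2.53 and 2.22 RPKM in total RNA and at 2.12, 2.08 and 1.58 RPKM in Ago2-IP, the lowest of the 10 genes in all 3 Ago2-IP libraries. The 4 proteins are close relatives, and how reads shared between the genes were counted is not given in the sources used here.

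As a share of the summed RPKM of the 4 Argonautes, *EIF2C2* made up 36.4%, 33.3% and 31.4% in total RNA of NT, *miR-195* and *miR-497* cells. In Ago2-IP it was 70.3%, 70.8% and 50.8% of the sum. *EIF2C1* held 37.1% to 43.2% in total RNA, in NT within counting error of *EIF2C2*, and 14.0% to 23.0% in Ago2-IP. A ratio of 2 genes in 1 library does not depend on the scaling of that library. The RPKM of *EIF2C2* over that of *EIF2C1* was 5.03 in NT Ago2-IP (4.61 to 5.49), 4.12 with *miR-195* (3.79 to 4.48) and 2.21 with *miR-497* (1.91 to 2.55), with intervals that do not overlap. In total RNA it was also lowest with *miR-497*, at 0.982 in NT (0.902 to 1.07), 0.865 with *miR-195* (0.794 to 0.943) and 0.727 with *miR-497* (0.671 to 0.787).

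**Figure D2:**
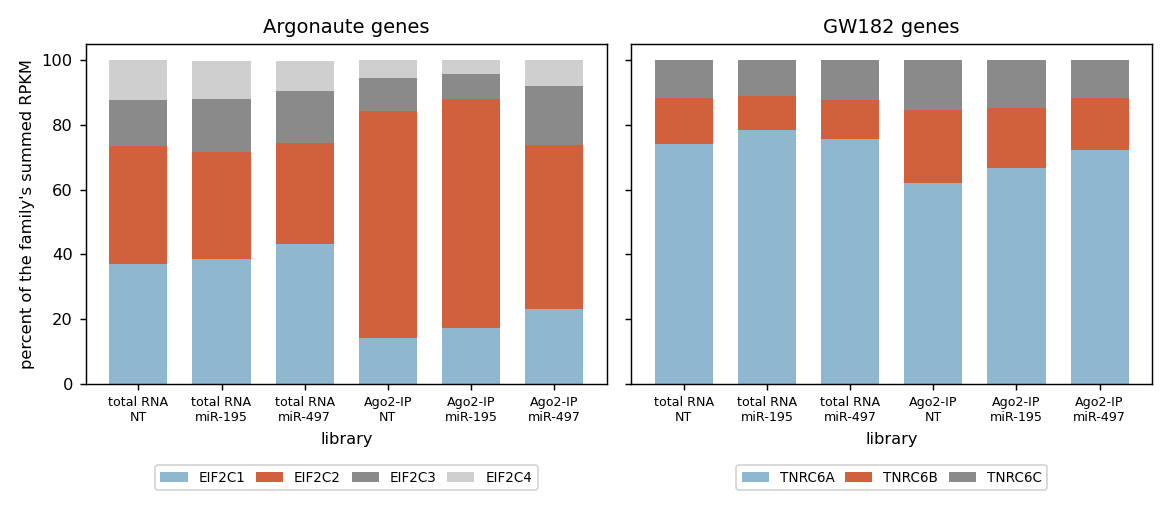
Share of each gene in the summed RPKM of its family (percent, stacked bars) in each of the 6 libraries, for the Argonaute genes on the left and the GW182 genes on the right. *EIF2C2* takes 31.4% to 36.4% of the Argonaute sum in total RNA and 50.8% to 70.8% in Ago2-IP, while *TNRC6A* is the largest part of the GW182 sum in all 6.

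The 3 GW182 genes were each higher in Ago2-IP than in total RNA in NT and *miR-195* cells. *TNRC6A*, which encodes the GW182 protein itself, had 14.9, 18.1 and 16.0 RPKM in total RNA and 26.7, 38.1 and 16.7 RPKM in Ago2-IP of NT, *miR-195* and *miR-497* cells. *TNRC6B* had 2.85, 2.48 and 2.56 RPKM in total RNA, and 9.80, 10.7 and 3.73 RPKM in Ago2-IP. *TNRC6C* had 2.32, 2.52 and 2.59 RPKM in total RNA, and 6.58, 8.36 and 2.70 RPKM in Ago2-IP. For each of these paralogs the lowest of the 3 Ago2-IP values was that of *miR-497*.

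The Ago2-IP level of *TNRC6B* was 3.44 times its total RNA level in NT (3.05 to 3.87), 4.29 times with *miR-195* (3.81 to 4.84) and 1.46 times with *miR-497* (1.24 to 1.71). For *TNRC6C* the ratios were 2.84 (2.49 to 3.24), 3.32 (2.94 to 3.74) and 1.04 (0.875 to 1.24). *TNRC6A* had ratios of 1.79 (1.69 to 1.89), 2.10 (2.00 to 2.21) and 1.04 (0.971 to 1.12). With *miR-497*, therefore, the RPKM of *TNRC6A* and *TNRC6C* in Ago2-IP differed from total RNA by less than counting error.

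*TNRC6A* made up 74.3% to 78.4% of the summed GW182 RPKM in total RNA and 62.0% of it in NT Ago2-IP, where *TNRC6B* held 22.8% against 14.2% in total RNA. The share of *TNRC6C* was 11.5% in NT total RNA and 15.3% in NT Ago2-IP.

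The 3 processing genes were lower in Ago2-IP than in total RNA in every condition. *DICER1*, whose product cuts the hairpin, was at 20.2, 17.4 and 14.3 RPKM in total RNA of NT, *miR-195* and *miR-497* cells in turn, and at 11.3, 11.5 and 8.43 RPKM in Ago2-IP. *DGCR8*, the RNA-binding partner of Drosha, was at 10.3, 9.35 and 11 RPKM in total RNA and at 4.83, 4.80 and 3.39 RPKM in Ago2-IP. *XPO5* was at 39.0, 36.8 and 36.3 RPKM in total RNA and at 13.2, 15.9 and 11.2 RPKM in Ago2-IP.

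For each of these genes the highest Ago2-IP value lay below the lowest total RNA value. The Ago2-IP to total RNA ratio of *XPO5* was 0.339 in NT (0.314 to 0.366), 0.433 with *miR-195* (0.401 to 0.467) and 0.308 with *miR-497* (0.279 to 0.340). The corresponding ratios were 0.558, 0.661 and 0.588 for *DICER1* and 0.467, 0.513 and 0.307 for *DGCR8*.

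A ratio of the deposited RPKM depends on how much of each library falls outside the genes, and over all genes the median Ago2-IP to total RNA ratio was far below 1, at -1.62 on the log2 scale in NT, -1.09 after *miR-195* and -1.94 after *miR-497*. All 9 hepatocyte markers were below their total RNA level in every Ago2-IP library. Each ratio was therefore also set against the median of all genes measured in both libraries, and a gene is called past the fold where it lies at least 1.5-fold from that median. On that scale 8 of the 10 genes were past the fold upwards in NT, against 32.3% of all 14101 genes measured, 7 with *miR-195*, against 29.5%, and 8 with *miR-497*, against 35.0%. Downwards 0 of the 10 were past it, against 31.2%, 28.1% and 34.5% of all genes. On the deposited scale, without the median subtracted, 4 genes were at least 1.5-fold above 1 and 4 below it in NT, 4 above and 3 below with *miR-195*, and 0 above and 4 below with *miR-497*. The shares of all genes on that scale were not counted. The median over the 10 genes was 1.5 (log2, above the median of all genes) in NT, 1.15 with *miR-195* and 1.68 with *miR-497*.

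*TNRC6B* stood 10.5-fold above the median gene in the NT ratio, *EIF2C2* 9.68-fold, *TNRC6C* 8.70-fold and *TNRC6A* 5.49-fold. These values place the 4 genes above 96.3%, 96.0%, 94.9% and 92.7% of all genes. With *miR-195* they were 9.16-fold, 10.3-fold, 7.08-fold and 4.49-fold above the median gene in the same order. For the 3 GW182 genes these values were lower than in NT, although their deposited ratios were higher. *EIF2C3* was 3.66-fold above the median gene, *EIF2C4* 2.18-fold, *EIF2C1* 1.89-fold and *DICER1* 1.71-fold, although 3 of these 4 were below 1 on the deposited scale, where *EIF2C1* was at -0.70, *EIF2C4* at -0.49 and *DICER1* at -0.84 (log2). *DGCR8* (1.43-fold) and *XPO5* (1.04-fold) lay within 1.5-fold of the median gene. No precipitation with a control antibody was analysed here. Whether poly-A selection differed between Ago2-IP and total RNA libraries is not given in the sources used here, so the precipitation and the selection cannot be told apart in these ratios.

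**Figure D3:**
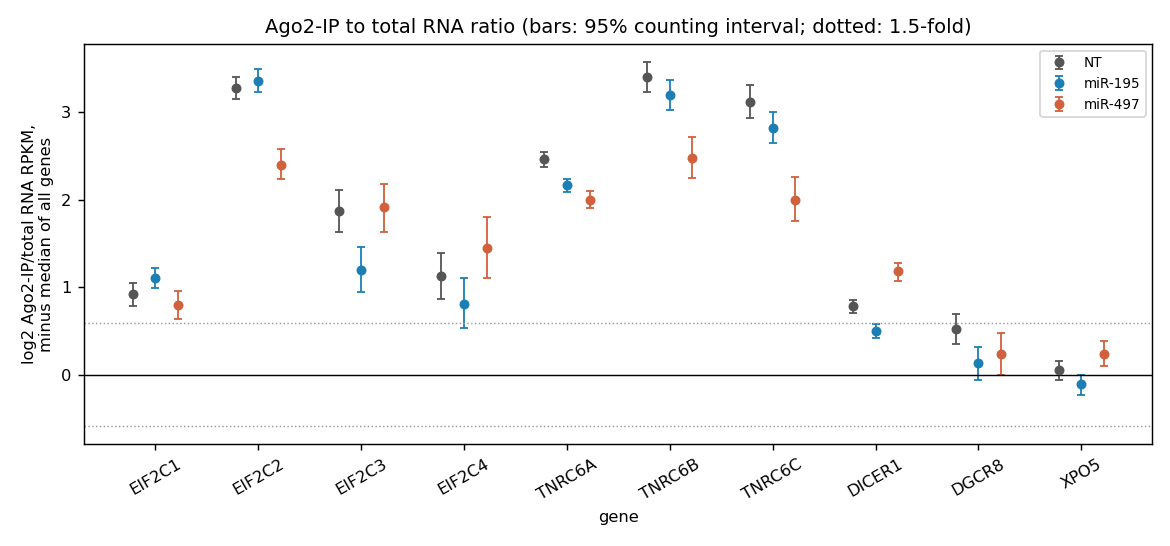
Ago2-IP to total RNA ratio of each gene as log2 RPKM ratio minus the median of all genes (line at 0), for NT, *miR-195* and *miR-497*, with 95% counting intervals as bars and dotted lines at 1.5-fold. *TNRC6B* (3.40 in NT), *EIF2C2* (3.28) and *TNRC6C* (3.12) stand highest and are lower with *miR-497* (2.48, 2.40 and 2.00), whereas *XPO5* stays near 0.

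The mimics were then compared with NT within total RNA, which asks whether the messages of the miRNA machinery were at another level 24 h after transfection. With *miR-195*, 0 of the 10 genes were past the fold in either direction, against 12.9% of all 14740 measured genes upwards and 8.93% downwards. With *miR-497*, 0 were past it upwards, against 14.2%, and 1 downwards, against 7.36%. These shares include genes under 1 RPKM. Among genes of at least 1 RPKM in both libraries they were 5.62% upwards and 5.91% downwards with *miR-195*. With *miR-497* they were 9.34% and 3.75%. The medians over the 10 genes were -0.16 and -0.09 (log2, minus the median of all genes), and the medians of all genes were 0.02 and 0.09. In a bulk culture, fewer cells with a message and less of it per cell cannot be told apart.

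The 1 gene past the fold was *DICER1* with *miR-497*. Its RPKM there was 0.709 of that in NT (0.681 to 0.737, on 4620 and 5206 reads), which put it 1.5-fold below the median gene and above 7.3% of genes. It sat at the limit itself, and was no longer past it in 5 of the 6 other ways of computing the value. With *miR-195* the same ratio was 0.863 (0.830 to 0.896).

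*DICER1* has 2 seed words. *EIF2C4*, with 3, was next, at 0.744 of its NT level with *miR-497* (0.640 to 0.865) and 0.848 with *miR-195* (0.731 to 0.983). *EIF2C2*, also with 3, was at 0.834 (0.755 to 0.921) with *miR-497* and 0.799 (0.722 to 0.884) with *miR-195*. *TNRC6A*, with none, was the highest of the 10 against NT with *miR-195*, at 1.21 (1.15 to 1.28), and was at 1.08 with *miR-497*. *TNRC6B*, the gene with 5 seed words, was at 0.871 with *miR-195* (0.758 to 1.0) and 0.897 with *miR-497* (0.783 to 1.03), and *EIF2C1*, with 3 words, at 0.907 (0.849 to 0.970) and 1.13 (1.06 to 1.20). With 1 word each, *EIF2C3* was at 0.996 and 1.07, *TNRC6C* at 1.09 and 1.12 and *XPO5* at 0.944 and 0.932, in the same order of mimics. *DGCR8*, without a word, was at 0.905 and 1.07. Whether the words go with these changes was not tested.

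Between the mimics in total RNA, 0 of the 10 genes were past the fold upwards (7.06% of all genes) or downwards (9.21%). Among genes of at least 1 RPKM these shares were 2.14% and 3.61%. *DICER1* was the furthest from the median gene, with *miR-195* at 1.22 times its *miR-497* level (1.17 to 1.27).

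Within Ago2-IP the mimics differed more. With *miR-195*, 0 of the 10 genes were past the fold upwards, against 21.4% of all genes and 16.4% of those of at least 1 RPKM. Downwards 1 gene, *EIF2C3*, was past it, against 17.4% and 13.8%. Its deposited RPKM was 0.900 of that in NT (0.743 to 1.09), within counting error, while the median over all genes was 0.48 higher than in NT (log2), so the call rests on that median. On the deposited scale *EIF2C1* was at 1.48 times NT (1.34 to 1.64), *TNRC6A* at 1.43 (1.35 to 1.5), *TNRC6C* at 1.27 (1.14 to 1.42) and *EIF2C2* at 1.22 (1.14 to 1.30). The median gene was itself at 1.39 times NT on that scale. Relative to it *EIF2C1* was at 1.07 and *TNRC6A* at 1.03, while *TNRC6C* (0.914) and *EIF2C2* (0.875) lay below it.

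With *miR-497*, 3 of the 10 genes were past the fold downwards in Ago2-IP, namely *EIF2C2*, *TNRC6B* and *TNRC6C*. The shares were 10.3% of all 13866 genes and 5.02% of the 8968 genes of at least 1 RPKM. Upwards 0 were past it, against 12.3% and 4.56%. *EIF2C2* was at 0.364 of its NT level (0.325 to 0.407, on 381 and 1655 reads), 2.35-fold below the median gene, with 2.4% of genes lower. *TNRC6B* was at 0.381 (0.328 to 0.441) and 2.25-fold below the median gene, and *TNRC6C* at 0.411 (0.347 to 0.487) and 2.08-fold below it.

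*TNRC6A* was at 0.626 of NT (0.583 to 0.673), 1.36-fold below the median gene and so short of the limit. The other 6 genes lay within 1.22-fold of the median gene, with deposited ratios from 0.703 for *DGCR8* to 0.878 for *EIF2C3*. In total RNA of the same condition these 3 genes and *TNRC6A* were at 0.834 (*EIF2C2*), 0.897 (*TNRC6B*), 1.12 (*TNRC6C*) and 1.08 (*TNRC6A*) of NT.

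**Figure D4:**
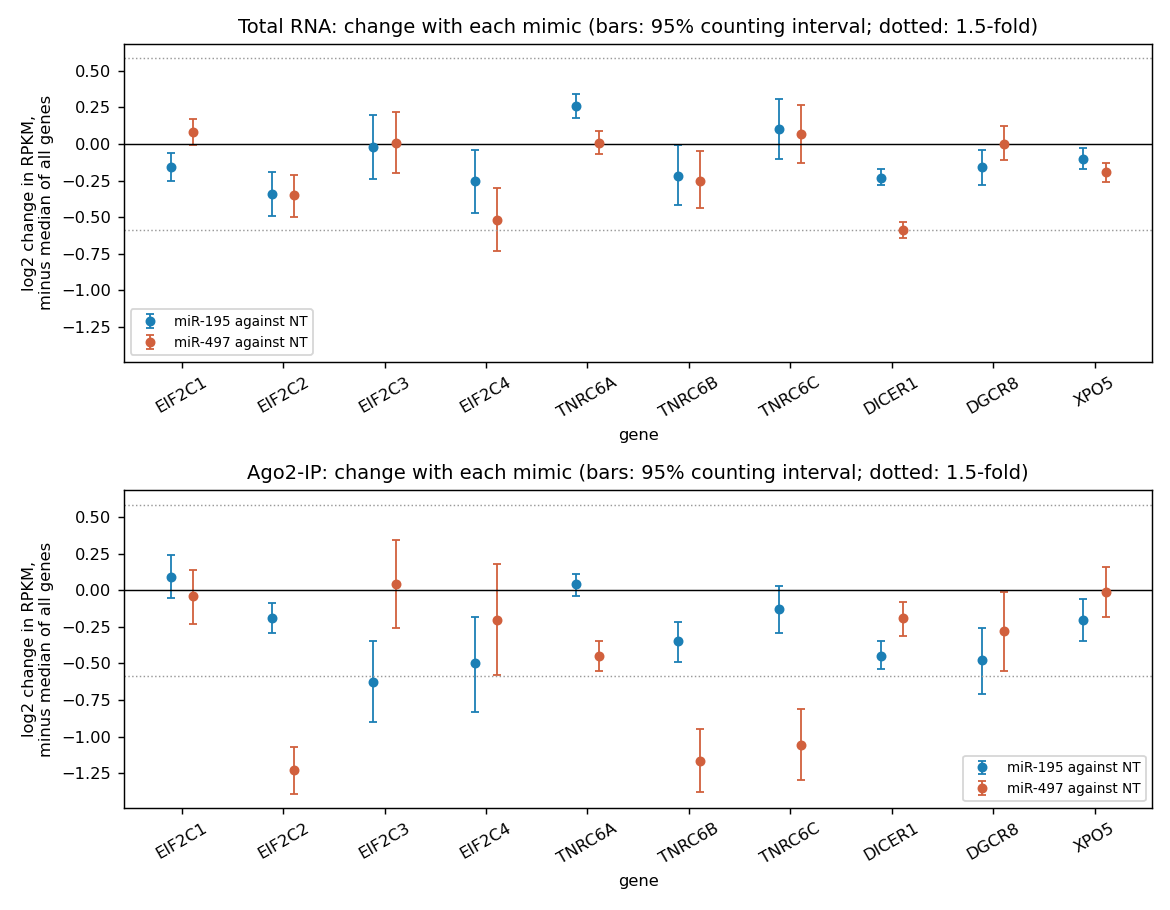
Log2 change of RPKM against NT, minus the median of all genes, in total RNA (top) and Ago2-IP (bottom), for *miR-195* and *miR-497*, with 95% counting intervals as bars and dotted lines at 1.5-fold. In total RNA 1 value, *DICER1* with *miR-497* at -0.59, reaches a dotted line, and in Ago2-IP *EIF2C2* (-1.23), *TNRC6B* (-1.17) and *TNRC6C* (-1.06) with *miR-497* lie well below it.

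The *miR-497* Ago2-IP library also had the fewest mapped reads, an estimated 10700000 against 16900000 in NT, and the fewest genes detected, 14465 against 14971, and the part of these differences in the result was not tested. Ratios within a library do not use its total. The RPKM of *EIF2C2* over that of *DICER1* in Ago2-IP was 2.49 in NT (2.33 to 2.66), 2.97 with *miR-195* (2.77 to 3.18) and 1.21 with *miR-497* (1.08 to 1.37), and that of *TNRC6B* over *DICER1* was 0.869 (0.803 to 0.939), 0.925 (0.850 to 1.01) and 0.443 (0.382 to 0.513). In total RNA of the same 3 conditions *EIF2C2* over *DICER1* was 0.440, 0.408 and 0.518, where the value with *miR-497* is the highest of the 3. *DICER1* itself was at 0.709 of its NT level in total RNA with *miR-497*. Against *EIF2C1*, *EIF2C2* in total RNA was lowest with *miR-497*, at 0.982, 0.865 and 0.727 in the same order.

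In Ago2-IP of *miR-195* against *miR-497* cells, the same 3 genes were past the fold upwards, against 24.2% of all genes, and 1, *EIF2C3*, downwards, against 21.4%. This comparison uses the same single *miR-497* Ago2-IP library as the one against NT and is not a separate check of it. *EIF2C2* was 3.35 times as high with *miR-195* (2.99 to 3.74), *TNRC6C* 3.09 times (2.61 to 3.66) and *TNRC6B* 2.86 times (2.46 to 3.32), and the median gene was 0.67 higher on the log2 scale. *EIF2C3* was at 1.02 (0.822 to 1.28) on the deposited scale, where 5 genes were past the fold upwards and 0 downwards. The shares of all genes on that scale were not counted.

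**Figure D5:**
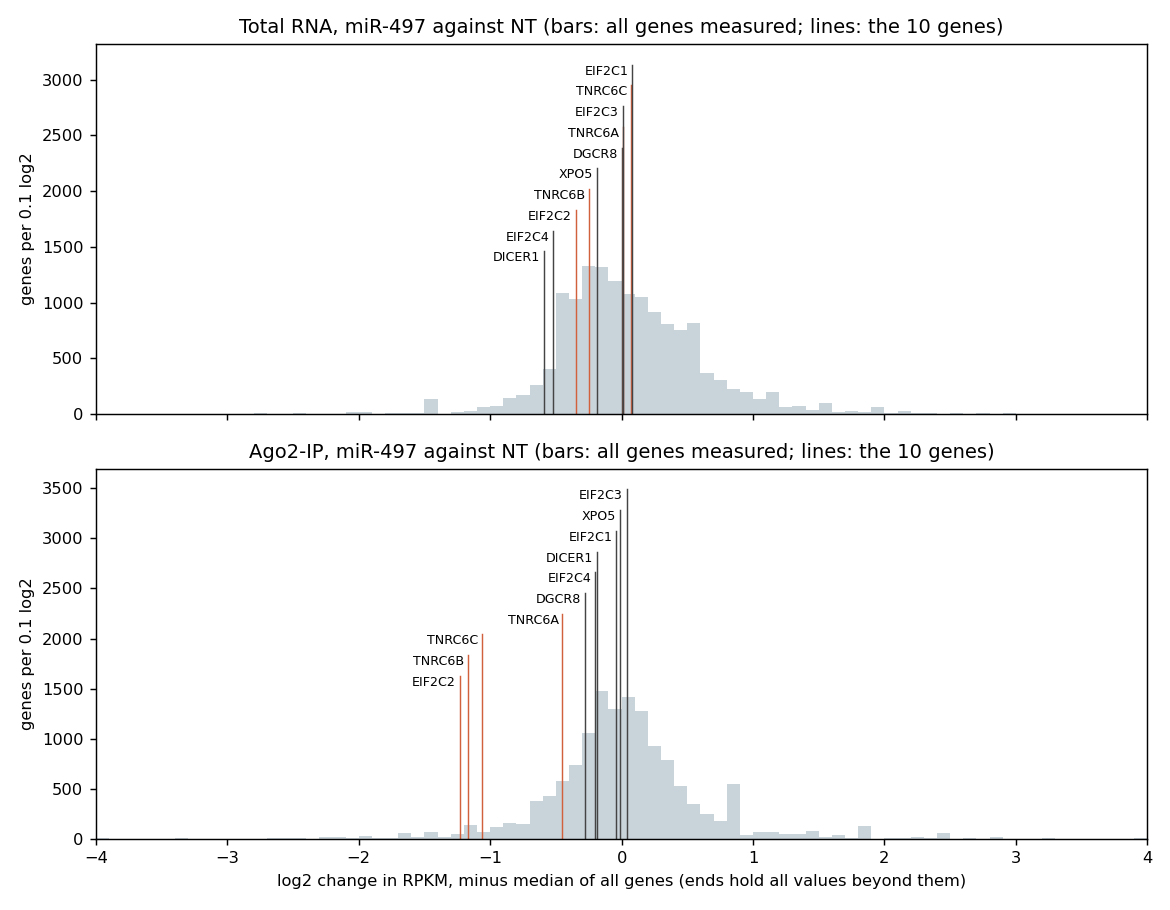
Number of genes per 0.1 log2 of change with *miR-497* against NT, minus the median of all genes, in total RNA (top) and Ago2-IP (bottom), with the 10 genes as lines (orange for *EIF2C2* and the GW182 genes). In Ago2-IP *EIF2C2*, *TNRC6B* and *TNRC6C* lie in the left tail, with 2.4%, 2.6% and 3.6% of genes below them.

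The fold enrichment score divides the Ago2-IP to total RNA ratio of transfected cells by that of NT cells and so shows whether a message came down more with Ago2 after transfection. With *miR-195*, 0 of the 10 genes scored past the fold above the median gene, against 18.6% of all genes, and 1, *EIF2C3*, below it, against 16.9%. *EIF2C1* had the highest deposited score, 1.64 (1.45 to 1.84), which is 1.18-fold above the median gene. The other genes with a word followed by an A were below the median gene, *EIF2C3* at 0.903 (0.708 to 1.15) and *TNRC6B* at 1.25 (1.05 to 1.48). On the deposited scale *EIF2C1* and *EIF2C2* (1.52) were the 2 genes past the fold, and 0 were past it downwards. The median gene was at 1.38 on that scale, and the share of all genes past the fold there was not counted. With *miR-497*, whose score uses the same Ago2-IP library again, 0 scored past the fold above. The shares were 12.6% of all genes and 6.29% of those of at least 1 RPKM. Below, 3 were past it, against 20.6% and 14.9%. These were *TNRC6C* with a score of 0.368 (0.295 to 0.459), *TNRC6B* with 0.424 (0.347 to 0.519) and *EIF2C2* with 0.436 (0.376 to 0.506), followed by *TNRC6A* with 0.582 (0.532 to 0.637).

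The pattern of *EIF2C2* over the 6 libraries was compared with that of each of 8581 genes with at least 1 RPKM in all 6. By the Pearson correlation of log2 RPKM, given here as a description over 6 libraries that fall into 2 kinds of RNA, the 5 most alike were *TNRC6B* (r = 0.997), *YLPM1* (0.989), *FAM179B* (0.982), *TNRC6C* (0.980) and *MAP3K8* (0.976). *TNRC6A* was in place 15 (0.931), while *EIF2C3* was in place 202 (0.694) and the other 5 genes had negative values, down to -0.675 for *XPO5*. *YLPM1* was at 118, 112 and 19.4 RPKM in Ago2-IP of NT, *miR-195* and *miR-497* cells and at 12.9 to 13.8 RPKM in total RNA. *MAP3K8* was at 9.88, 12.0 and 6.15 RPKM in Ago2-IP and at 5.24 to 6.16 RPKM in total RNA.

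A wider list of the pathway held 60 symbols, of which 55 were in the table and 52 had values in every comparison. In total RNA with *miR-195*, 0 of the 52 were past the fold upwards, against 12.9% of all genes, and 1 downwards, against 8.93%. With *miR-497* these were 1 upwards, against 14.2%, and 0 downwards, against 7.36%. Among genes of at least 1 RPKM in both libraries the shares were 5.62% upwards and 5.91% downwards with *miR-195*. With *miR-497* they were 9.34% and 3.75%. The 2 genes, named after their values were seen, were *TARBP2*, which encodes a partner of Dicer (9.31 RPKM with *miR-195*, 15.9 in NT), and *LIN28A*, which encodes a binder of let-7 precursors (14.3 RPKM with *miR-497*, 8.88 in NT). Of the Ago2-IP to total RNA ratios in NT, 8 of the 52 were past the fold upwards, against 32.3% of all genes, and 22 downwards, against 31.2%. All 11 measured genes of Argonaute loading (chaperones such as HSP90 and the C3PO nuclease) were past it downwards in NT, and 10 of 11 with either mimic. The shares of all genes were 31.2% in NT, 28.1% with *miR-195* and 34.5% with *miR-497*. The medians of the 11 were -1.51 in NT, -1.34 with *miR-195* and -1.37 with *miR-497* (log2, minus the median of all genes). Of 13 other genes of precursor processing and export, 8 were past it downwards in NT and none upwards, against 31.2% and 32.3% of all genes. With *miR-195* 8 were past it downwards and 1 upwards, against 28.1% and 29.5%. With *miR-497* these were 6 and 1, against 34.5% and 35.0%. Among 17 partners of Argonaute and GW182 proteins, 4 were past it upwards and 3 downwards in NT, against 32.3% and 31.2% of all genes. Of 10 genes of miRNA modification and turnover, 4 were past it upwards and none downwards in NT, against the same shares. With *miR-195* the turnover genes stood at 0 upwards and 2 downwards, against 29.5% and 28.1% of all genes. With *miR-497* they stood at 5 and 0, against 35.0% and 34.5%. Of the 4 PIWI genes, which encode the germline relatives of the Argonautes, 1 was measured in every comparison and lay within the fold in NT. In Ago2-IP of *miR-497* against NT, 2 of the 52 were past the fold upwards, against 12.3% of all genes, and 0 downwards, against 10.3%. Among genes of at least 1 RPKM these shares were 4.56% and 5.02%. The 2 genes were the RNA-editing gene *ADARB1*, at 1.24 and 0.946 RPKM with *miR-497* and in NT, and *PIWIL2*, at 0.229 and 0.13 RPKM. Both were named after their values were seen.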

How the data were processed

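The deposited table holds 1 RPKM value per gene and library, made by the authors with CASAVA 1.7 from single reads aligned to hg19 (version and build per the submitters' processing notes). Its gene annotation is not given in the sources used here, and the study's methods describe libraries with or without poly-A selection without saying which was which. Of 21891 lines, those of the 28 symbols with several lines were averaged. The 10 genes, the wider pathway list and the markers were chosen with earlier results of these data known.

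Each comparison was the log2 ratio of deposited RPKM without a pseudocount, for genes above 0 in every library used, minus the median over all such genes. Genes at least 1.5-fold from that median were called past the fold. All 10 genes were above 0 and at least 1 RPKM in all 6 libraries. No test was run, since each group has 1 library. The genes to be named were the 10 themselves, pathway genes past the fold in total RNA in the same direction with both mimics (there were none), and the 5 genes whose log2 RPKM correlated best with *EIF2C2*. *TARBP2*, *LIN28A*, *ADARB1* and *PIWIL2* fall outside that rule and were named after their values were seen. *ALB*, *PTPRC* and similar genes served as a check of cell type only.

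RPKM values of a gene are whole multiples of what 1 read is worth, so reads were inferred for 14144 of 15487 genes (91.3%; tolerance 0.005 reads plus rounding). The gene lengths implied came within 1.5-fold of annotated transcripts for 81.9% of 9312 genes. Tested on simulated RPKM of 14985 genes, reads were inferred for 97.1%, and 97.7% of those equalled the simulated reads. For the *miR-195* fold enrichment score simulated on 11680 genes, 196 changed genes with a given log2 score of 1 had a median of 1.01, and 92.9% were past the fold. Counting intervals are 95% intervals from the reads of each library used. Seed words were searched in the 3′UTRs of GENCODE 44 on GRCh37. Python 3.11.15, numpy 2.4.6, pandas 2.3.3 and pysam 0.24.0 were used.

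For each comparison 6 alternatives were computed: a pseudocount of 0.1 or 1 RPKM, only genes of at least 1 RPKM, no centring, upper quartile scaling, and lines of a symbol kept apart.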

Additional observations from a re-analysis of the deposited data

How the results depend on the processing

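Values are the median over the 10 genes (log2, minus the median of all genes), and each cause was not tested. No paired analysis was possible because each group has 1 library and no result comes from a test. Without centring, the Ago2-IP to total RNA ratio reversed in NT from 1.5 to -0.12 and with *miR-497* from 1.68 to -0.26, and with *miR-195* it went from 1.15 to 0.06. Of 110 values of single genes, 37 changed sign without centring, 9 of them past the fold. Those 9 were *EIF2C1* (-0.70), *EIF2C4* (-0.49) and *DICER1* (-0.84) in NT, *EIF2C4* (-0.28) with *miR-195*, and *EIF2C1* (-1.14), *EIF2C3* (-0.04), *EIF2C4* (-0.49) and *DICER1* (-0.77) with *miR-497* in the ratio, and *EIF2C3* in Ago2-IP of *miR-195* against *miR-497*, at 0.03. The Ago2-IP change with *miR-195* went from -0.28 to 0.20 and the *miR-195* score from -0.23 to 0.24, both changing sign. The Ago2-IP change went from -0.24 to -0.47 with *miR-497* and from 0.00 to 0.67 between the mimics, and the *miR-497* score from -0.24 to -0.52. The NT ratio was 1.18 with a pseudocount of 0.1, 0.81 with 1, 1.72 with genes of at least 1 RPKM and 1.73 with upper quartile scaling. The *miR-195* ratio was 0.93, 0.64, 1.35 and 1.38 in the same order, and the *miR-497* ratio 1.32 and 0.88 with the pseudocounts. With a pseudocount of 1, the Ago2-IP change was -0.02 with *miR-195* and 0.28 between the mimics, and the *miR-195* score 0.07. The longer word TGCTGCTA left 3 of the 10 genes with a site, against 8.

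The 3 genes past the fold in Ago2-IP with *miR-497* were 3 under 5 alternatives and 4 without centring. The median gene was then at 0.855 of its NT level, and the share of all genes on that scale was not counted. *EIF2C2* lay between -1.46 and -1.23 there, *TNRC6B* between -1.39 and -1.09 and *TNRC6C* between -1.28 and -0.93. In total RNA the 1 gene past the fold with *miR-497* became 0 in 5 of 6 alternatives. *EIF2C3* in Ago2-IP with *miR-195* became 0 genes with either pseudocount, without centring and with upper quartile scaling. With a pseudocount of 1 the NT ratio had 5 genes past the fold upwards and 1 downwards, against 8 and 0. The shares of all genes with a pseudocount or with upper quartile scaling are not given here. The 3 genes with a low *miR-497* score were 5 without centring, and the 1 with a low *miR-195* score was 0 with either pseudocount or without centring. Without centring the median gene's *miR-497* score was 0.824, and the share of all genes on that scale was not counted. Depth limits *EIF2C4* most, with 80 reads in *miR-497* Ago2-IP.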
